A study of Mus musculus with 25 samples.

Results

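The genes described here are the fetal and hypertrophy markers Nppa, Nppb, Acta1 and Actc1, the natriuretic peptide receptors Npr1, Npr2 and Npr3, and Corin, the protease that processes the atrial peptide. They are components of 1 signalling system with its companion actin markers, and the rule uses no comparison between groups. The members were chosen with earlier results of these data known. Where a gene has several probe sets of its own, the rule takes the 1 with the highest mean over the arrays. Each has 1 probe set annotated to it alone on the Affymetrix Mouse Gene 1.0 ST array and none shared with another gene, so that all 8 were measured, among 19938 genes with a probe set of their own. The array measured RNA of primary cardiac myocytes cultured from neonatal mice. TG myocytes carried a CHF1/Hey2 transgene driven in the myocardium by the mlc2v promoter, the promoter of the ventricular myosin light chain, and WT myocytes came from wild type mice. The 4 groups were WT without serum (5 arrays), TG without serum (6 arrays), WT with serum (7 arrays) and TG with serum (7 arrays). All cultures were kept in serum-free medium, and those with serum then received 20% fetal bovine serum, a hypertrophic stimulus, for 24 hours before RNA was taken. The comparison of TG with WT asks whether raised CHF1/Hey2 goes with other levels of these markers, at rest and under the stimulus. The methods call the cultures independent but do not say whether they came from separate litters, and the mouse strain and the number of transgenic lines are not given in the sources used here, so a p gives no more than the spread among cultures as deposited.

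Natriuretic peptides are hormones of the heart. Nppa and Nppb encode the precursors of the atrial and the B-type natriuretic peptide, which the fetal ventricle makes, the adult ventricle makes much less of, and the hypertrophied ventricle makes again. Corin, a transmembrane serine protease of cardiac myocytes, cleaves the atrial precursor to the active peptide. Npr1 encodes the guanylyl cyclase receptor of both peptides, Npr2 that of the C-type peptide, and Npr3 the clearance receptor, which takes the peptides up. Acta1 and Actc1 encode the skeletal and the cardiac α-actin of the sarcomere, and in rodents Acta1 belongs to the fetal program that returns in hypertrophy. GATA4, a zinc finger activator of cardiac genes, drives Nppa and Nppb, and CHF1/Hey2 is a Hairy-related repressor that was reported to bind GATA4.

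Nppb and Nppa lie side by side on mouse chromosome 4 (build GRCm38.p6), Nppb at chr4:147985786-147987205 and Nppa at chr4:148000722-148002074, with 13516 bases between them. Npr2 is on the same chromosome at chr4:43629015-43651437. Acta1 is at chr8:123891758-123894775, Actc1 at chr2:114047282-114052875, Npr1 at chr3:90450591-90465928, Npr3 at chr15:11839896-11907837 and Corin at chr5:72299948-72504540. The promoter windows of the 4 markers are shown because these genes varied together between cultures, as described below. Each window, from RefSeq on GRCm38.p6, runs from 250 bases before to 50 bases after an annotated start, which for Nppb is not the outermost start of the gene. The same holds for the windows of Npr1, Npr2 and Npr3, which were searched for motifs but are not shown. Nppa is shown from chr4:148000472-148000771 (plus strand), Nppb from chr4:147985650-147985949 (plus strand), Acta1 from chr8:123894726-123895025 (minus strand) and Actc1 from chr2:114052826-114053125 (minus strand). Capitals mark matches, on either strand, to the motifs named after the sequences.
Nppa: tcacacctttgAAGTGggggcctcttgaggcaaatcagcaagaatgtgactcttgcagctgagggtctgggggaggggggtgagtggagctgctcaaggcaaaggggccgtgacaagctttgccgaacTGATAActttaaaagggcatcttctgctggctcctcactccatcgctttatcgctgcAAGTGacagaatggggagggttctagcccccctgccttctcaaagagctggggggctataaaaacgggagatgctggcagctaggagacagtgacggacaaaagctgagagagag
Nppb: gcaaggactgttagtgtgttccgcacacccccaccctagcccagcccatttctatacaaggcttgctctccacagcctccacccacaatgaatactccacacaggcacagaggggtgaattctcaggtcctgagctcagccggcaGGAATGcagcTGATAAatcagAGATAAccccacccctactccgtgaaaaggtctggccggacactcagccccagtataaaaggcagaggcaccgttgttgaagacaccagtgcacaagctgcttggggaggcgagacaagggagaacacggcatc
Acta1: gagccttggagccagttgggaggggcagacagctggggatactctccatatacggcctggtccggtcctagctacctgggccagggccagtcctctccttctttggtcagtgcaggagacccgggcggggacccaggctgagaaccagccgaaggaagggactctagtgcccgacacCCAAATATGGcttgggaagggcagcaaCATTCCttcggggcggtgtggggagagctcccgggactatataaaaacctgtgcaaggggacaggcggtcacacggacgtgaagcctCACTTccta
Actc1: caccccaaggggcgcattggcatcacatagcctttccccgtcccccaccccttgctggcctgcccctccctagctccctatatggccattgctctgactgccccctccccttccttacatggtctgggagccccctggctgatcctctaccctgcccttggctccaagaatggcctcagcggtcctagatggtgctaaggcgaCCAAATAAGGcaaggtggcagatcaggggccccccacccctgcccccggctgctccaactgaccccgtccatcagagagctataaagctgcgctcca
The motifs searched on both strands were the GATA sites AGATAA or AGATAG and their forms TGATAA or TGATAG, the Nkx2-5 core AAGTG, the MCAT box CATTCC, the CArG box, and the E-box CACGTG and the related CACGCG, which Hairy-related repressors are known to bind. The Nppa window holds TGATAA with its first base at -122 from the start, and AAGTG at -239 and -65. The Nppb window holds TGATAA at -95 and AGATAA at -84, next to a MCAT box on the minus strand (GGAATG) at -105. Acta1 and Actc1 each hold a CArG box, the element bound by serum response factor, at -73 and -47. The Acta1 window also holds a MCAT box at -46 and the Nkx2-5 core on the minus strand (CACTT) at position 42. Of the 32851 promoter windows in the table, 29.8% hold a GATA site, 46.4% AAGTG, 14.7% a MCAT box and 1.63% a CArG box. CACGTG is in none of the 8 members' windows and in 7.15% of all windows, and CACGCG is in that of Npr1 only, at -218, and in 9.27% of all. A match of letters is a description and not evidence of binding.

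The values are log2 intensities after Robust Multichip Analysis (RMA). They show levels of 1 probe set between arrays, and differences in level between probe sets are not read here as differences in transcript amount. Array medians were 5.21 to 5.36 with serum and 4.99 to 5.09 without, and the median SD across probe sets was 2.57 and 2.12, so the arrays with and without serum are on different scales. TG was therefore compared with WT within each serum set, and serum was assessed by the percentile rank of a probe set among all 35557 of its array. Hey2, the transgene, was above every WT array in every TG array of its set. Its log2 difference was 1.58 (SE 0.26, unadjusted p = 6.47e-05 and adjusted p = 0.853 in limma) without serum and 1.81 (3.52-fold, SE 0.20, adjusted p = 0.00972) with serum. Without serum the transgene itself did not pass the adjusted test, so failing it does not show equal levels in TG and WT. Markers of cardiac myocytes, a list of 10 genes such as Tnnt2 and Ryr2 without any of the members, had array means of 9.35 to 11.12. In 6 arrays the mean was under 10, namely WT no serum 2 (9.42), TG no serum 4 (9.84) and 5 (9.35), WT serum 3 (9.73) and 4 (9.74), and TG serum 6 (9.87). The other 19 arrays were between 10.26 and 11.12, and the 6 arrays were below all of them. These are called low-myocyte arrays or cultures below, a name for this marker mean only. The paper checked each preparation by staining for sarcomeric myosin and reports a high purity, with no value for single cultures. In these bulk RNA samples, fewer myocytes and less of a transcript per myocyte cannot be told apart. Array means were 6.30 to 6.58 for atrial markers, 8.62 to 9.73 for ventricular markers and 8.11 to 9.38 for fibroblast markers. As means over different probe sets, these levels do not rank the cell types. Within the atrial list alone, gene means over the arrays ran from 3.71 (Kcna5) to 11.40 (Myl4). Between TG and WT the median differences of the marker lists were -0.076 without serum and -0.025 with serum for fibroblasts, 0.031 and 0.063 for smooth muscle, -0.18 and -0.16 for epicardium, -0.16 and 0.21 for macrophages, -0.048 and -0.018 for atrial myocytes and 0.15 and 0.35 for ventricular myocytes, with 0 genes past the test in each list. Of the 6 ventricular markers 6 had a higher mean in TG without serum and 5 with serum, where 2 had an unadjusted p under 0.05.

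Nppa and Nppb did not differ between TG and WT myocytes past the test in either serum set, and TG minus WT was above 0 for both peptides in both. Without serum, WT Nppa values were 12.82, 12.28, 12.82, 12.91 and 12.87 in cultures 1 to 5. The TG values had a lowest of 12.22, a median of 12.99 and a highest of 13.12. The groups overlapped because TG cultures 4 (12.48) and 5 (12.22) were below most WT cultures, while the other 4 TG cultures were above every WT culture. TG cultures had a mean of 12.80 ± 0.37 (SD, n = 6), beside 12.74 ± 0.26 (SD, n = 5) for WT cultures. The log2 difference was 0.065 (SE 0.18, 95% confidence interval -0.33 to 0.46, adjusted p = 0.966).

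With serum, Nppa ranged from 12.82 to 13.47 in WT myocytes with a median of 13.29. It ranged from 12.84 to 13.67 in TG myocytes with a median of 13.59. Apart from cultures 1 (13.39), 5 (13.27) and 6 (12.84), every TG culture was above the highest WT culture. The log2 difference was 0.25 (1.19-fold, SE 0.14, interval -0.050 to 0.55, adjusted p = 0.533), beside a within-group SD of 0.28.

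Nppb, the B-type peptide precursor, had the widest range of the 8 genes in both sets. WT values without serum were 10.78, 9.49, 10.65, 11.06 and 11.06 in cultures 1 to 5. TG values had a lowest of 9.75, a median of 11.23 and a highest of 11.91. The pattern was that of Nppa, with WT culture 2 and TG cultures 4 (10.14) and 5 (9.75) below all others and the other 4 TG cultures above every WT culture. The log2 difference was 0.40 (1.32-fold, SE 0.43, interval -0.54 to 1.35, adjusted p = 0.922). With serum, WT values ran from 10.57 to 11.68 with a median of 11.26, and TG values from 10.99 to 12.15 with a median of 11.73. Again the groups overlapped, 4 TG cultures being above the highest WT culture. The log2 difference was 0.46 (1.38-fold, SE 0.20, interval 0.026 to 0.90), with an unadjusted p of 0.0393 and an adjusted p of 0.444. Nppb was the only member with an unadjusted p under 0.05 in that comparison, which 4.39% of all probe sets reached in the direction of higher in TG.

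**Figure D1:**
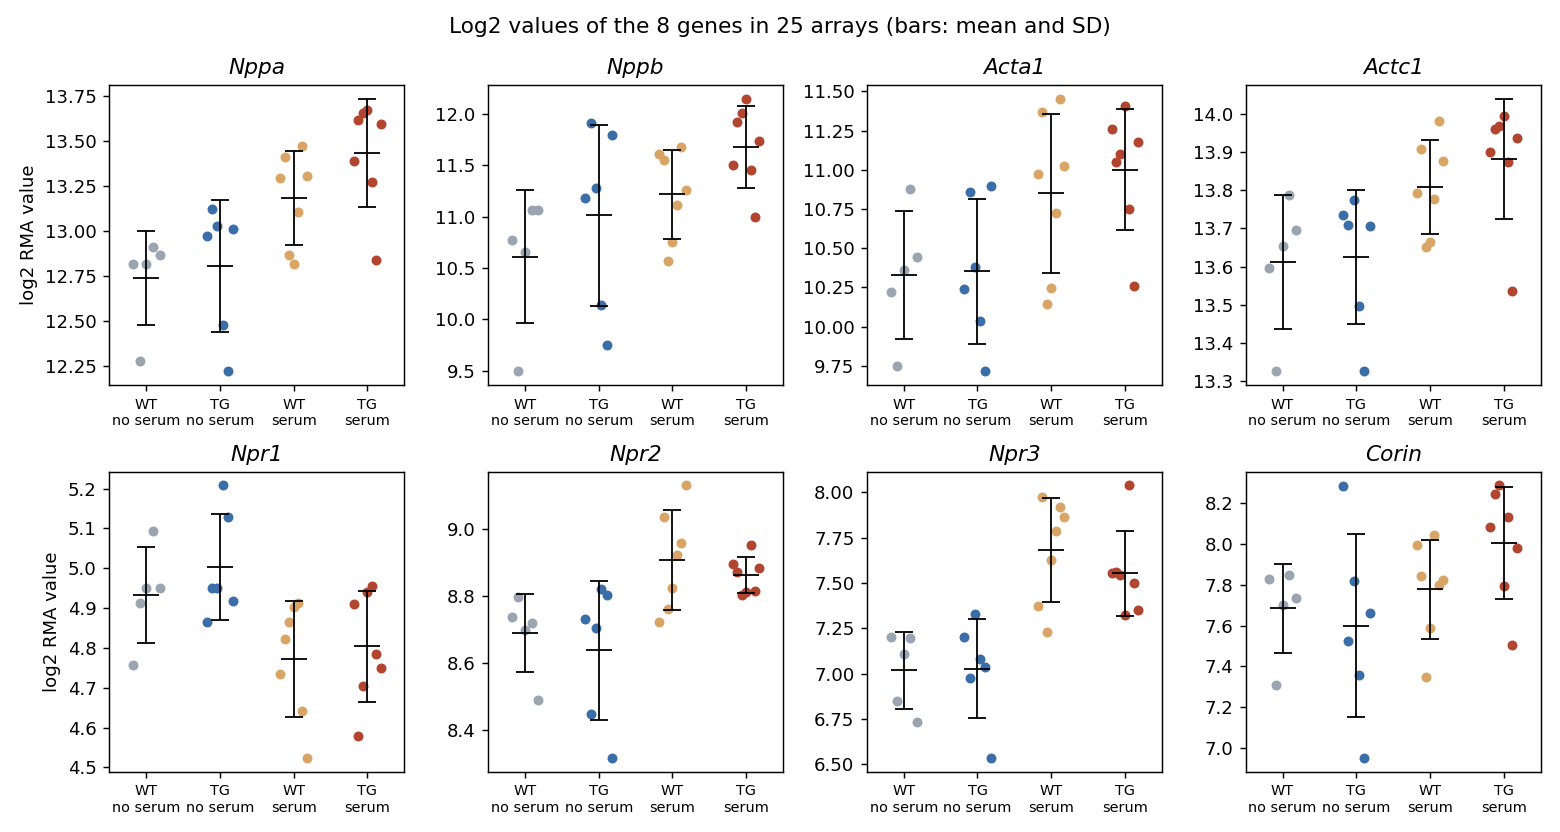
Log2 RMA value (y axis) of each of the 8 genes in each array, by group (x axis), with points for single cultures and bars for the mean and SD of the group. Nppb spans 9.49 to 11.91 without serum, and in every panel the TG and WT points of a serum set overlap.

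Corin, the processing protease, and the actins did not differ between TG and WT past the test either. Corin had WT values of 7.83, 7.31, 7.70, 7.85 and 7.74 without serum, and TG values with a lowest of 6.95, a median of 7.59 and a highest of 8.28. TG cultures lay on both sides of the WT cultures, and the log2 difference was -0.085 (SE 0.20, adjusted p = 0.961). With serum the Corin median was 8.08 in TG (7.50 to 8.29) and 7.82 in WT (7.35 to 8.04). TG minus WT was 0.23 (SE 0.13, interval -0.052 to 0.50, adjusted p = 0.544).

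Acta1, the skeletal actin of the fetal program, had WT values of 10.22, 9.75, 10.36, 10.88 and 10.45 without serum and TG values of 9.72 to 10.90 with a median of 10.31. The 2 groups covered nearly the same range, and the log2 difference was 0.023 (SE 0.24, interval -0.50 to 0.55, adjusted p = 0.992). With serum, Acta1 was at 10.15 to 11.45 in WT (median 10.98) and at 10.26 to 11.41 in TG (median 11.10), a difference of 0.15 (SE 0.22, interval -0.32 to 0.63, adjusted p = 0.841). Actc1, the cardiac actin, was among the brightest probe sets of every array, at a percentile of 99.92 or above, and varied little. It spanned 13.33 to 13.79 in the arrays without serum, and 13.54 to 13.99 in those with serum. TG minus WT was 0.013 (SE 0.098, adjusted p = 0.988) without serum and 0.074 (SE 0.077, adjusted p = 0.759) with serum.

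None of the 3 receptors differed between TG and WT past the test, and their log2 differences were at most 0.13 in size. Npr1, the receptor of the atrial and B-type peptides, had a mean log2 value of 4.87 over the 25 arrays, under the limit of 5 set here for dim probe sets. TG minus WT for Npr1 was 0.070 (SE 0.074, interval -0.093 to 0.23, adjusted p = 0.922) without serum and 0.032 (SE 0.078, interval -0.13 to 0.20, adjusted p = 0.916) with serum. Npr2 was at 8.32 to 8.82 without serum and 8.72 to 9.13 with serum, and TG minus WT was -0.051 (SE 0.097, adjusted p = 0.952) and -0.046 (SE 0.065, adjusted p = 0.837).

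Npr3, the clearance receptor, had WT values of 7.20, 6.85, 7.11, 7.20 and 6.74 without serum and TG values of 6.53 to 7.33 with a median of 7.06. All WT values lay within the range of the TG values. TG minus WT was 0.0087 (SE 0.14, interval -0.29 to 0.31, adjusted p = 0.994). With serum the median was 7.54 in TG (7.33 to 8.04) and 7.79 in WT (7.23 to 7.97), a difference of -0.13 (SE 0.13, interval -0.41 to 0.15, adjusted p = 0.753). Npr3 is also a gene of endocardial cells, and of 9 other endothelial and endocardial markers none was higher in TG with serum by the mean, with a median difference of -0.28 and 0 past the test, against -0.019 over all probe sets. Their array means with serum were 5.64 to 6.92 in TG and 5.97 to 6.97 in WT, and their part in the Npr3 values was not tested.

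Over the members, 0 of 8 passed an adjusted p under 0.05 in the TG against WT comparison without serum, where 0% of the 35557 probe sets passed and Hey2 did not either. With serum 0 of 8 passed, against 0.00844% of all probe sets. At an unadjusted p under 0.05, 0 of 8 and 1 of 8 members passed, against 5.64% and 10.7% of all probe sets. The TG and WT arrays overlapped for 8 of 8 members in each set, where 0.402% of probe sets without serum and 0.256% with serum did not overlap. In each set 6 of 8 members had a higher mean in TG, with a median difference of 0.018 without serum and 0.11 with serum, beside -0.0083 and -0.019 over all probe sets. Whether TG minus WT itself differed between the serum sets was fitted over the 25 arrays. That fit sets log2 differences from different scales against each other and uses a common spread. The spread around group means with serum was 1.52 times that without. The difference between the sets passed for 0 of 8 members and for 0.00281% of probe sets, and by rank also for 0 members. For the members it ran from -0.14 (Npr3) to 0.31 (Corin, SE 0.24), and it was 0.19 (SE 0.23) for Nppa and 0.060 (SE 0.46) for Nppb, each with an adjusted p of 1.00.

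**Figure D2:**
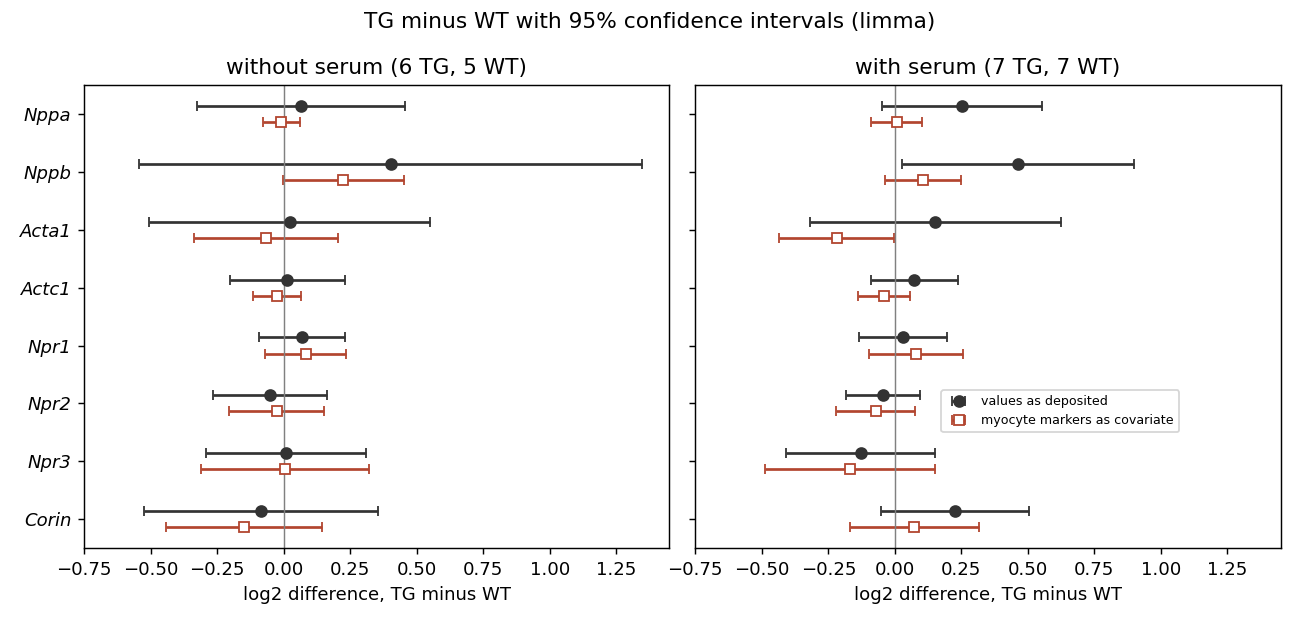
TG minus WT (x axis, log2) for each gene with 95% confidence intervals, without serum on the left and with serum on the right. Filled circles are the values as deposited and open squares the fit with the array's myocyte marker mean as a covariate, under which the Nppb interval without serum narrows from -0.54 to 1.35 down to -0.0035 to 0.45.

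Cultures of the same group varied widely in several of these genes. Nppb without serum ran from 9.75 to 11.91 within TG and from 9.49 to 11.06 within WT. Across both genotypes its range was 5.35-fold over the 11 arrays without serum and 2.99-fold over the 14 arrays with serum. The within-group SD of Nppb without serum was 0.79, at percentile 99.8 of all probe sets, whose median SD was 0.11. Acta1 (SD 0.44), Corin (0.36) and Nppa (0.32) were at percentiles 97.6, 95.6 and 93.5. Without serum the SDs of the receptors were below these, at 0.25 for Npr3, 0.17 for Npr2 and 0.13 for Npr1. With serum the order differed, with Acta1 (SD 0.45, percentile 90.9) and Nppb (0.42, percentile 88.9) followed by Nppa (0.28, percentile 78.8), Npr3 (0.26, percentile 76.0) and Corin (0.26, percentile 75.6).

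Nppa, Nppb, Acta1 and Actc1 deviated from their group means together. Across the arrays without serum (n = 11) the Pearson correlation of these deviations was 0.97 for Nppa with Nppb, 0.86 for Nppa with Acta1 and 0.95 for Nppa with Actc1, and with serum (n = 14) it was 0.95, 0.93 and 0.96. Corin went with Nppa at 0.78 and 0.64. The deviations of the marker mean of cardiac myocytes correlated with Nppa at 0.996 and 0.98, with Nppb at 0.97 and 0.97, with Acta1 at 0.88 and 0.93, with Actc1 at 0.95 and 0.92 and with Corin at 0.78 and 0.67. The lowest arrays of each group in these 4 genes were the 6 arrays with a low mean of the myocyte markers. These are descriptions across arrays that share an RNA sample and a scan for every gene.

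The receptors did not share this pattern. Npr1 correlated with the myocyte marker mean at -0.48 without serum and -0.37 with serum, and Npr3 at 0.085 and 0.17. Npr2 changed sign, from -0.62 to 0.27. Npr2 and Npr3 went with each other at 0.70 and 0.78. Hey2 was lowest among the TG arrays in the same cultures with a low myocyte marker mean. It was at 7.08 and 7.08 in TG cultures 4 and 5 without serum and 7.94 in TG culture 6 with serum.

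**Figure D3:**
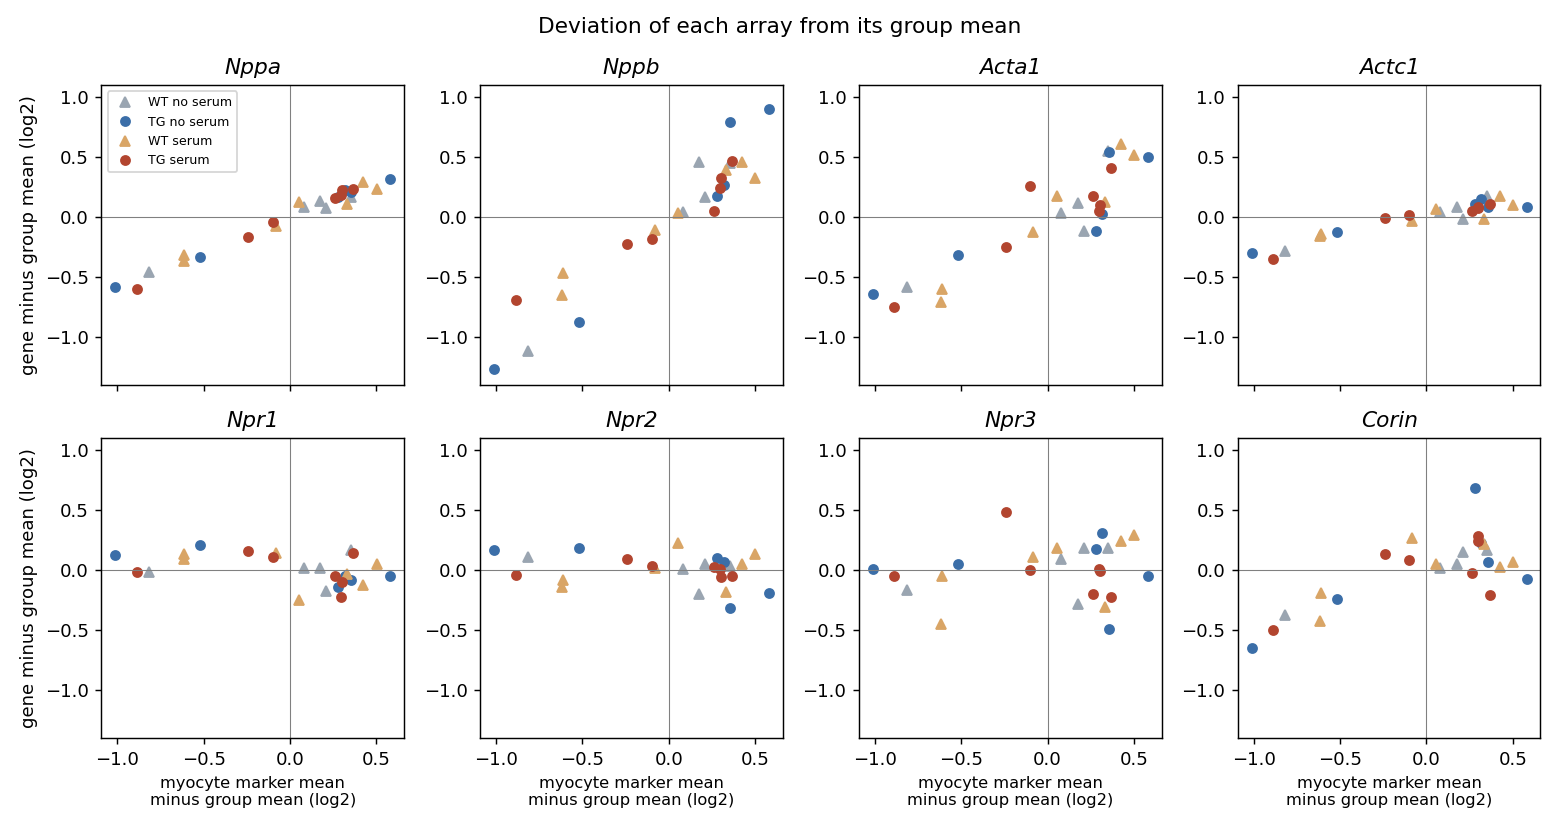
Deviation of each gene from its group mean (y axis, log2) against the deviation of the cardiac myocyte marker mean (x axis, log2), 1 point per array, circles for TG and triangles for WT. Nppa, Nppb, Acta1, Actc1 and Corin lie along a rising line, with a correlation of 0.97 for Nppb in each set, and Npr1, Npr2 and Npr3 do not.

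The genes whose deviations were most like those of each member, by the lower of the 2 correlations over 11 and 14 arrays, were for Nppa the sarcomere genes Actn2 (0.995 and 0.99) and Myom1 (0.996 and 0.98), both in the marker list, and Itgb1bp2 (0.99 and 0.98). For Nppb they were Pdlim5 (0.99 and 0.99), the dystrophin gene Dmd (0.99 and 0.99) and the sodium-calcium exchanger gene Slc8a1 (0.98 and 0.99). Acta1 had another set, the growth factor gene Pdgfc (0.98 and 0.96), the smooth muscle calponin gene Cnn1 (0.99 and 0.96) and Myl9 (0.95 and 0.95). Actc1 was followed by Pkia, Nppa and Ogdh (0.95 to 0.97), and Corin by Bhlhb9 (0.96 and 0.88), Gja3 (0.88 and 0.88) and Ripor2 (0.88 and 0.93). The receptors were nearest to genes of other kinds, Npr2 to Sh2b1 (0.90 and 0.90), Npr3 to Usp24 (0.83 and 0.87) and Npr1 to Slirp (0.77 and 0.70).

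The myocyte marker mean was also higher in TG than in WT, by 0.13 without serum and by 0.41 with serum. With this mean as a covariate, a fit chosen after the data were seen, TG minus WT was -0.0090 (SE 0.031) for Nppa without serum and 0.0067 (SE 0.045) with serum. For Nppb it was 0.22 (1.17-fold, SE 0.10, interval -0.0035 to 0.45, adjusted p = 0.681) without serum and 0.11 (SE 0.066, interval -0.037 to 0.25, adjusted p = 0.538) with serum. Acta1 turned below 0, at -0.065 (SE 0.12) without serum and -0.22 (SE 0.10, interval -0.43 to -0.0020, adjusted p = 0.401) with serum. None of the 8 passed the adjusted test in either set in this fit, where 0% of all probe sets passed without serum and 0.0956% with serum. Nppa deviations correlated with the covariate at 0.996 and 0.98, and the covariate holds Actn2 and Myom1. Because the covariate was also higher in TG, this fit cannot separate CHF1/Hey2 from marker level.

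When the 3 low-myocyte arrays without serum were left out, also after the data were seen, Nppa and Nppb of the 4 remaining TG cultures were above those of all 4 remaining WT cultures. The differences were 0.18 (SE 0.046, adjusted p = 0.279) for Nppa and 0.66 (1.58-fold, SE 0.18, adjusted p = 0.298) for Nppb. Among all probe sets 2.68% were so separated in that direction. The myocyte marker means of these cultures did not overlap either, at 10.64 to 10.94 in TG and 10.31 to 10.58 in WT, and CHF1/Hey2 and marker level cannot be told apart in them. With serum, without the 3 low arrays, the differences were 0.21 (SE 0.092, adjusted p = 0.472) for Nppa and 0.35 (SE 0.15, adjusted p = 0.462) for Nppb.

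By rank within the array, serum went with a lower place of Npr1 and Npr2 in both genotypes. No change passed the test in the other 6 members, of which Nppa and Actc1 stood too near the top rank for a rise to pass. Serum treatment and array set cannot be told apart, because each scale belongs to 1 serum condition, and ranks remove only a monotone difference of scale. Npr1 stood at percentiles 45.4, 47.1, 48.3, 50.4 and 48.9 in WT cultures 1 to 5 without serum, and at 39.3 to 44.8 with a median of 42.9 in WT cultures with serum. In TG it stood at 47.9 to 52.5 with a median of 48.8 without serum and at 40.7 to 46.4 with a median of 44.1 with serum. All cultures with serum were below all cultures without serum of the same genotype. The Npr1 probe set is dim, with a mean log2 value of 4.87, and was not tested in the ranks among brighter probe sets. The difference was -5.39 percentile points (SE 1.22, adjusted p = 6.48e-04) in WT and -5.85 (SE 1.16, adjusted p = 1.53e-04) in TG. On the log2 values as deposited it was -0.16 (adjusted p = 0.0724) in WT, no longer past the test, and -0.20 (adjusted p = 0.0212) in TG.

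Npr2 moved less and its groups overlapped. In WT it stood at 90.1, 90.7, 89.8, 90.0 and 88.2 without serum and at 86.4 to 89.2 with a median of 88.1 with serum. In TG it stood at 87.0 to 90.7 with a median of 89.7 without serum and at 86.9 to 88.0 with a median of 87.4 with serum. The difference was -1.93 points (SE 0.61, adjusted p = 0.00968) in WT and -1.74 (SE 0.58, adjusted p = 0.0129) in TG. On the log2 values as deposited the sign was the opposite, 0.22 in each genotype (adjusted p = 0.0199 and 0.0124), and without the 6 low-myocyte arrays the rank difference no longer passed (adjusted p = 0.0867 and 0.168).

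On the log2 values as deposited, whose scale differs between the sets, more members passed. In WT these were 3 of 8, namely Npr2, Nppa (0.44 higher with serum, adjusted p = 0.0196) and Npr3 (0.66 higher, adjusted p = 2.02e-04). In TG they were 7 of 8, with Nppa (0.63, adjusted p = 9.67e-04), Npr3 (0.53, adjusted p = 0.00119), Acta1 (0.65, adjusted p = 0.0150), Actc1 (0.26, adjusted p = 0.00934) and Corin (0.40, adjusted p = 0.0282) higher beside Npr2, and Npr1 lower. Nppb was at 0.61 (adjusted p = 0.0992) in WT and 0.67 (adjusted p = 0.0569) in TG. On this scale 27312 of the 35557 probe sets passed in WT and 27790 in TG.

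By rank, the count of 2 of 8 members lower with serum stands beside 29.2% of all probe sets in WT and 30.1% in TG that passed in that direction, and 0 of 8 were higher beside 28.8% and 29.8%. Groups without overlap in the lower direction were 1 of 8 members, beside 18.8% and 18.5% of probe sets. These shares are near or above those of the members, so the counts do not set the members apart. Nppa (mean percentile 99.8 in WT without serum, 99.8 with serum) and Actc1 (99.97 and 99.97) had little room to rise in rank. With SEs of 0.20 and 0.19 points in WT, a rise of either to the top rank could not have passed. Nppb differed by 0.33 points (SE 0.79, adjusted p = 0.742) in WT and 0.59 (SE 0.75, adjusted p = 0.511) in TG, and Acta1 by -0.091 (SE 0.71, adjusted p = 0.925) and 0.41 (SE 0.67, adjusted p = 0.617). Npr3 was higher by 2.74 points (SE 1.57, adjusted p = 0.139) in WT and 1.17 (SE 1.49, adjusted p = 0.517) in TG. Corin differed by -3.55 points (SE 1.81, adjusted p = 0.0981) in WT and by -0.25 (SE 1.72, adjusted p = 0.913) in TG. The 2 WT values are near the threshold, since Npr3 passed without WT serum culture 3 (3.58 points, adjusted p = 0.0462) and Corin without the 6 low-myocyte arrays (-3.17 points, adjusted p = 0.0299).

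**Figure D4:**
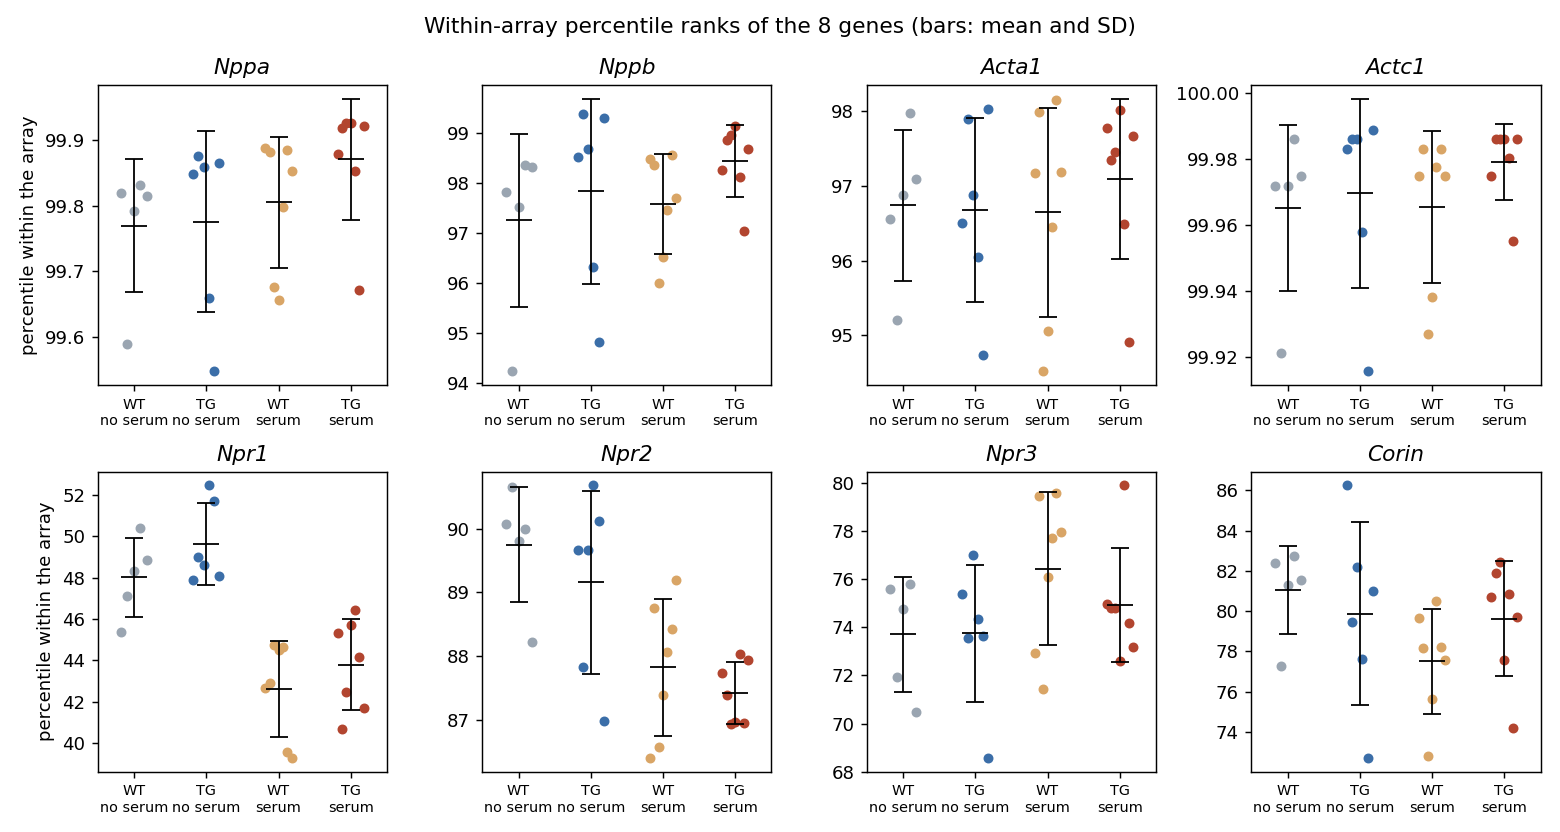
Percentile rank within the array (y axis) of each of the 8 genes by group (x axis), with points for single cultures and bars for the mean and SD. Npr1 lies at 45.4 to 52.5 without serum and at 39.3 to 46.4 with serum, and the y axes differ between panels.

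Other genes of the natriuretic peptide pathway, a list of 20 from the C-type peptide Nppc to the cyclic GMP kinases and phosphodiesterases, gave 0 calls between TG and WT in either set. The median difference of the list was 0.050 without serum and -0.014 with serum, beside -0.0083 and -0.019 over all probe sets. The smallest p without serum belonged to Dpp4, a peptidase that trims B-type peptide, at -0.30 (SE 0.11, adjusted p = 0.853) on a dim probe set (mean log2 4.81), and to Furin, a proprotein convertase that cleaves its precursor, at 0.35 (SE 0.17, adjusted p = 0.878). With serum they belonged to Prkg1, a cyclic GMP-dependent kinase, at 0.21 (SE 0.078, adjusted p = 0.376) and Furin at 0.19 (SE 0.082, adjusted p = 0.430).

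By rank, 3 of the 20 were higher with serum in WT and 6 lower, and in TG 2 were higher and 8 lower, beside 28.8% of all probe sets higher and 29.2% lower in WT and 29.8% and 30.1% in TG. The probe sets of Prkg2, Pde9a and Mme named next are dim, with mean log2 values of 4.28, 4.26 and 4.92. Nppc fell by 10.2 percentile points in WT and fell by 8.48 in TG, and Prkg2, the second cyclic GMP-dependent kinase, rose by 10.6 and 12.6 points. Vasp, a substrate of these kinases at the actin cytoskeleton, rose by 2.76 and 3.77 points. Mme, the endopeptidase neprilysin that degrades natriuretic peptides, differed by -7.24 and -8.04 points, and Pde9a, a cyclic GMP phosphodiesterase, by -5.32 and -3.70 points, both past the test as falls. As for the members, these rank changes belong to serum and array set jointly.

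A list of 20 further genes of the fetal and hypertrophy program, such as the myosin heavy chains, gave 0 calls between TG and WT, with 15 of 20 higher in TG without serum and 17 of 20 with serum. Its median difference was 0.089 and 0.17, below that of the cardiac myocyte markers (0.15 and 0.41, with 8 of 10 and 10 of 10 higher and 0 past the test). Myh7, the β-myosin heavy chain, had 0.097 (SE 0.43, adjusted p = 0.980) and 0.47 (SE 0.24, adjusted p = 0.504), and Myh6, the α-form, 0.019 (SE 0.51, adjusted p = 0.997) and 0.39 (SE 0.27, adjusted p = 0.624). Neither form passed the test in either set. The smallest p with serum belonged to Tnnt1, slow skeletal troponin T, at 0.40 (SE 0.12, adjusted p = 0.320), and to Ckm, muscle creatine kinase, at 0.75 (SE 0.35, adjusted p = 0.462). Without serum they belonged to Hcn4, a pacemaker channel, at -0.072 (SE 0.038, adjusted p = 0.878) and Ckb, brain creatine kinase, at -0.19 (SE 0.099, adjusted p = 0.879). By rank, 2 of the 20 were higher and 3 lower with serum in WT, and 4 were higher and 1 lower in TG, fewer in each direction than the shares of all probe sets given above would make of 20. They included Myl7, the atrial light chain, up by 3.01 and 3.07 points, Slc2a1, a glucose transporter, up by 2.15 and 2.68 points, and Tnnt1, lower at -6.83 and -4.64 points.

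Of 20 known regulators of the Nppa and Nppb promoters, 0 passed between TG and WT in either set, and 17 had a higher mean in TG without serum and 14 with serum. The median difference was 0.12 and 0.14, beside 0.15 and 0.41 for the cardiac myocyte markers and -0.0083 and -0.019 over all probe sets. Gata4 itself was at 0.18 (SE 0.16, adjusted p = 0.915) without serum and 0.14 (SE 0.12, adjusted p = 0.699) with serum. Mef2d, a MADS-box activator, had the smallest p without serum, at 0.20 (SE 0.068, adjusted p = 0.853), followed by Hand2 at 0.19 (SE 0.088, adjusted p = 0.878). With serum the smallest p belonged to Srf, serum response factor, at 0.25 (SE 0.080, adjusted p = 0.332), and to Hand2, a bHLH factor of the developing ventricle, at 0.31 (SE 0.11, adjusted p = 0.362). By rank, 3 of the 20 were higher and 1 lower with serum in WT, and 5 were higher and 4 lower in TG, also fewer than those shares would make of 20. Hey1, a relative of Hey2, rose by 6.84 and 4.95 points and the T-box factor Tbx20 by 1.44 and 1.82 points, and Heyl, the third Hairy-related gene of the family, fell, at -9.11 and -6.53 points.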

How the data were processed

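RNA of cultured neonatal mouse cardiac myocytes was hybridized to Affymetrix Mouse Gene 1.0 ST arrays. Per the submitters' processing notes, the authors processed the arrays with RMA in Affymetrix Expression Console 1.1, and the deposited values are normalized log2 intensities of 35557 probe sets in 25 arrays. Whether arrays with and without serum were normalized together is not stated. Of the probe sets, 21789 carry 1 gene symbol, 1621 several and 12147 are unnamed here. Each gene was read from its brightest own probe set by the mean over arrays, for 19938 genes, and all 134 list entries matched. Members and lists were chosen with earlier results of these data known.

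TG and WT were compared within each serum set with limma 3.58.1 (R 4.3.3; lmFit with 1 mean per group, then eBayes), with Benjamini-Hochberg adjustment across every probe set of the table. The difference between sets came from 1 fit over 25 arrays, and serum was tested on within-array percentile ranks. Named were all 8 members, Hey2 and, from each list, up to 4 genes past the adjusted test or those with the smallest p. Myh6, Myh7 and Gata4 were named outside this rule after their values were seen, as were the list genes given by rank when more than 4 passed. For likeness, genes with a mean log2 of at least 6 were ranked by the lower of 2 correlations of values minus group means. The fits of TG against WT and the rank fit of serum in WT were tested on simulated data. Arrays have no counting depth, and their number limits the precision.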

Additional observations from a re-analysis of the deposited data

Results flagged for a closer look

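In 5 of 32 sets of 1 gene in 1 group, 1 culture stood far from the others of its group, by a rule that picks out about 1 set in 20 by chance. WT culture 2 without serum was the low culture for Nppa (12.28, with the nearest culture at 12.82), for Nppb (9.49, nearest 10.65) and for Corin (7.31, nearest 7.70). These 3 values come from 1 array, whose myocyte marker mean was 9.42 against 10.31 to 10.58 in the other WT cultures without serum. Actc1 was low in TG culture 6 with serum (13.54, nearest 13.87), an array with a myocyte marker mean of 9.87. Npr3 was high in TG culture 5 with serum (8.04, nearest 7.56), whose myocyte marker mean was 10.51. The part of the marker level in these values was not tested.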

How the results depend on the processing

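In all 23 alternative fits without serum and all 26 with serum, 0 members passed between TG and WT. Npr1 was not tested in the fits without dim probe sets. No fit without serum passed more than 1 probe set, and the fits with serum passed 1 to 141. With so few probe sets passing, the count of 0 members does not show that the result is stable. The 41 changes of sign among 390 member values were all of values that did not pass. Without serum the sign changed for Acta1 after quantile normalization (-0.0035), for Nppa, Acta1, Actc1, Npr1 and Npr3 relative to the myocyte markers (-0.064, -0.11, -0.12, -0.059 and -0.12), for Nppa, Acta1 and Actc1 with these as a covariate (-0.0090, -0.065 and -0.025), and for Npr1, Npr3 and Corin without the low-myocyte arrays (-0.018, -0.049 and 0.044). With serum it changed for Npr2 after centring (0.0037), for Nppa, Acta1, Actc1, Npr1 and Corin relative to the myocyte markers (-0.15, -0.25, -0.33, -0.37 and -0.18), and for Acta1 and Actc1 with the covariate (-0.22 and -0.041). Leaving out 1 array without serum gave -0.050 to 0.18 for Nppa, -0.12 to 0.16 for Acta1, -0.058 to 0.073 for Actc1, -0.10 to 0.013 for Npr2, -0.062 to 0.11 for Npr3 and -0.22 to 0.045 for Corin, and with serum -0.0099 to 0.069 for Npr1. Nppb stayed above 0, at 0.12 to 0.65 and 0.35 to 0.58.

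Same-numbered TG and WT cultures had residual correlations of -0.45 to 0.15 over 5 pairs without serum and -0.36 to 0.062 over 7 with serum. The paper's figure captions number the cultures without serum differently from the sample titles used here. There an equal number need not mean a shared preparation, so neither these correlations nor a block on the number can decide on pairing. With the number as a replicate block, 0 members passed between TG and WT, the sign changed without serum for Acta1 (-0.086), Actc1 (-0.0033) and Npr2 (0.013) and by rank in WT for Actc1 (-0.0020), and the count of probe sets with serum went from 3 to 1. That count was 141 in 1 fit over 25 arrays, 5 after quantile normalization, after centring or without dim probe sets, 1 when all probe sets of a gene were averaged, 34 with the covariate and 1 to 3 leaving out 1 array. Without serum it went from 0 to 1 without the low-myocyte arrays. For the difference between the sets it went from 1 to 0 after quantile normalization, by rank or with the block within the set, and to 0 to 4 leaving out 1 array.

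By rank, 2 members passed for serum in each genotype. Among brighter probe sets, where Npr1 was not tested, 1 passed in each, and without the 6 low-myocyte arrays 1 passed in TG. In log2 as deposited 3 passed in WT, where Nppa (0.44) and Npr3 (0.66) were gained and Npr1 (-0.16) was lost, and 7 passed in TG. The sign changed there in WT for Acta1 (0.52), Npr2 (0.22) and Corin (0.092) and in TG for Npr2 (0.22) and Corin (0.40). The sign also changed in WT for Acta1 by normal scores (0.00068) and without the low-myocyte arrays (0.27), and in TG for Actc1 among 1 probe set per gene (-0.00024) and for Nppb and Actc1 without the low-myocyte arrays (-0.31 and -0.0028). Leaving out 1 array gave 2 to 3 members in WT, with Nppa at -0.0088 to 0.061, Nppb at -0.42 to 0.61, Acta1 at -0.48 to 0.26 and Actc1 at -0.011 to 0.0067. In TG it gave Nppb at -0.0077 to 0.90, Actc1 at -0.0012 to 0.014 and Corin at -1.68 to 1.03. The counts of probe sets, 20617 in WT and 21298 in TG, became 11977 and 12365 among 1 probe set per gene and 10535 and 10810 among brighter ones, where fewer were tested. The cause of the other shifts was not tested.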
